A study of Saccharomyces cerevisiae with 11 samples.

Results

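Transcript levels of 3 SD strains of budding yeast (Saccharomyces cerevisiae) were set against those of 3 RD strains, over the 5891 gene rows that both deposited tables hold and whose mean was at least 1 FPKM (sequenced fragments divided by gene length and by the size of the library) in the 6 libraries. These 6 libraries are part of a series of 11, which also holds 3 GD libraries and a pair of wild-type libraries, control and ControlSYN3. The series is about essential genes gathered in clusters, with short recoded tags (PCRTags) to tell synthetic from wild-type copies. The labels give the genotypes only as SD, RD, GD and wild-type, and name no allele, background, mating type, medium, growth stage, clone or culture. The numbers SD1, SD2 and SD3 and RD1, RD5 and RD6 are taken as replicates, and nothing says that they came from separate cultures. Spread between the SD libraries, or between RD5 and RD6, may therefore be technical. RD1 differed from RD5 and RD6 in its mating-type genes, as given below. The means and spreads of RD therefore cover unlike libraries. The RD columns are headed MD1, MD5 and MD6, and were given to RD by their numbers. RNA was drawn with Trizol from cells ground frozen, and oligo-dT beads were used for the libraries, which then hold mainly polyadenylated transcripts.

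SD and RD were deposited in separate tables, SD with GD and control, RD with ControlSYN3, so the strain group and the table cannot be told apart and no test was run across them. A gene was called separated when every SD library lay at least 2-fold above, or at least 2-fold below, every RD library on log2(scaled FPKM + 1), where FPKM were scaled by median-of-ratios over the 6 columns. All levels below are scaled FPKM, and all differences are log2(scaled FPKM + 1) of SD minus RD unless another pair is named. The wild-type libraries of the tables are given beside the strains, and the share of separated rows in which they differ the same way is given below.

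By this rule 77 rows (1.31% of 5891) were higher in SD and 192 rows (3.26%) were lower in SD. All list counts below are to be read against these shares. Rows were ranked by difference only where they had a reference symbol and a mean of at least 10 FPKM in the higher group. The largest differences with SD lower were in rows with near copies or overlaps (YER190C-B, YLR035C-A and the 4 identical rows of YLR154C-H), and next in the ribonucleotide reductase RNR1, the acid phosphatase PHO3, the wall gene GAS3 and the replication clamp POL30. Separated members lower in SD were found in the lists of G1 and S phase, mitotic, replication, cell wall and phospholipid genes. With SD higher, the largest difference was in the row YER160C, which has many near copies. The stationary phase gene SPG4, the spore wall gene SPS100 and the dehydrogenase OYE3 came next, then the small open reading frame YMR175W-A and SPG1. A 4-fold gap was left in 9 rows (0.153%) higher in SD and 33 rows (0.56%) lower in SD. The median difference was 1.95 over the 77 rows and -1.82 over the 192 rows, and 0.02 over all rows. Just inside the 2-fold rule were HNT3, at 67.5 ± 5.47 in SD and 28.6 ± 2.08 in RD, and CTF18, at 11 ± 0.415 in SD and 27.8 ± 3.85 in RD; just outside were AQY3, at 136 ± 13.1 in SD and 42.1 ± 16.3 in RD, and RAP1, at 24.7 ± 0.528 in SD and 53.4 ± 1.85 in RD.

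**Figure D1:**
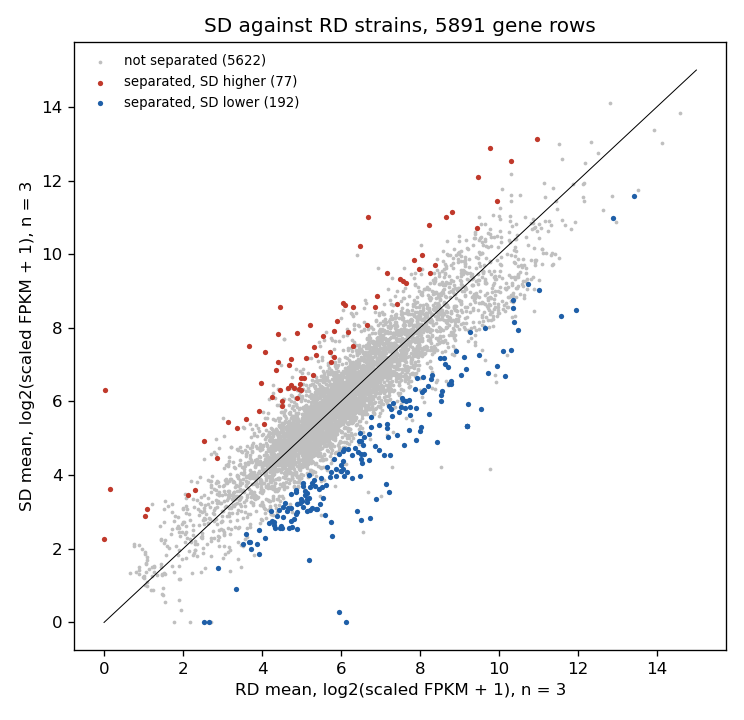
Mean level in SD strains (vertical axis) against mean level in RD strains (horizontal axis), both log2(scaled FPKM + 1) over 3 libraries, for 5891 gene rows; the line marks equal levels. The 77 separated rows higher in SD lie above the line and the 192 lower in SD below it.

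Depth, as estimated from the low values, was 17700000 to 17900000 fragments in the SD libraries and 19500000 to 20100000 fragments in the RD libraries, at which 1 fragment in a gene of 1 kb is worth about 0.052 to 0.059 FPKM. One library stands apart. RD1 was at least 2-fold from RD5 in 754 rows and from RD6 in 796 rows, whereas RD5 and RD6 were 2-fold apart in 19 rows and the SD libraries in 32 to 145 rows. RD1 lay 2-fold from the SD libraries in 710 to 768 rows, and RD5 and RD6 in 1176 to 1511 rows. Its mating-type genes also went their own way. The a-pheromone gene MFA2 stood at 15.2, 15.9 and 20.1 in SD, against 2591, 7.97 and 8.04 in RD1, RD5 and RD6, while the alpha-pheromone gene MF(ALPHA)1 stood at 3787, 2050 and 3122 in SD, against 27.8, 7073 and 6409 in the same RD order. RD1 thus carried the a-type pattern, and SD, RD5 and RD6 the alpha-type one. Without RD1, 426 of 5883 rows (7.24%) were separated with SD higher and 429 (7.29%) with SD lower.

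The wild-type libraries of the tables differed widely from each other: control was at least 2-fold above ControlSYN3 in 812 of 5891 rows (13.8%) and at least 2-fold below it in 834 rows (14.2%). Of the 77 rows higher in SD, 8 (10.39%) were also 2-fold higher in control than in ControlSYN3, and 18 (23.38%) went the other way. Of the 192 rows lower in SD, 14 (7.29%) were also 2-fold lower in control, and 54 (28.12%) went the other way. The remaining 51 and 124 rows were within 2-fold between the wild-type libraries. Most rows of any kind lacked a 2-fold difference between the wild types in a given direction. The same-direction counts therefore say little about the separated rows. The shares that went the other way, 23.38% and 28.12%, lay above the 14.2% and 13.8% of all rows. The cause was not tested.

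In budding yeast, genes needed to begin S phase are switched on together in late G1 by the transcription factors SBF and MBF, mitotic genes follow under Fkh2 and Ndd1, and genes of bud growth and wall building are used while the bud forms. As cells leave fast growth, another set is switched on by the stress factors Msn2 and Msn4 and by loss of glucose repression. MBF binds the MluI cell cycle box (MCB, ACGCGT) and Msn2 and Msn4 the stress response element (STRE, AGGGG or CCCCT on the other strand). Promoter stretches of 5 separated genes are shown here because they carry these letters: DNA polymerase alpha POL1, the flap nuclease RAD27 and the thymidylate synthase CDC21 among genes lower in SD, SPS100 and DDR2 among genes higher in SD. CDC21 and DDR2 were chosen after their values were seen. Each stretch runs 5′ to 3′ toward the gene, bases 250 to 101 before its annotated start, from the R64 RefSeq genome, with ACGCGT in capitals for the first 3 genes and CCCCT for SPS100 and DDR2. RAD27 also holds 1 CCCCT, left in lower case.
POL1: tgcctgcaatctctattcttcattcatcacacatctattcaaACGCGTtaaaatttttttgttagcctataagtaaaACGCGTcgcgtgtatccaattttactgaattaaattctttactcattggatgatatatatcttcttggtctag
RAD27: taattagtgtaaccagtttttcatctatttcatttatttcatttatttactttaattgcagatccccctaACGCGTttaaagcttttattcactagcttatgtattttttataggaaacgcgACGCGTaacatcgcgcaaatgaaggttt
CDC21: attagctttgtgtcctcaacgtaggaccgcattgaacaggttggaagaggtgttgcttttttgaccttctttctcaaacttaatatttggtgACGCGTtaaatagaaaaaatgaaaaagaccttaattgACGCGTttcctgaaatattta
SPS100: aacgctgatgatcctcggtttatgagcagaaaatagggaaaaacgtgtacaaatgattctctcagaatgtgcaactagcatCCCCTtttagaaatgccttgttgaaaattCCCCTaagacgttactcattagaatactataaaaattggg
DDR2: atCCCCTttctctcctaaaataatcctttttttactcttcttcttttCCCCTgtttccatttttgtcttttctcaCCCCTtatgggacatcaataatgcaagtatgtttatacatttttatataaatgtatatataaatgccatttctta
POL1 lies on the plus strand (its stretch is chrXIV:429837-429986), and the others on the minus strand (RAD27 chrXI:225976-226125, CDC21 chrXV:467690-467839, SPS100 chrVIII:379300-379449 and DDR2 chrXV:231856-232005).
Searched on both strands in the 250 bases before each gene, ACGCGT stood in 24 of 186 promoters (12.9%) of genes lower in SD, in 0 of 70 of genes higher in SD, and in 174 of 6001 (2.9%) of all protein-coding genes. AGGGG stood in 28 of 186 promoters (15.1%) of genes lower in SD, in 27 of 70 (38.6%) of genes higher in SD, and in 1126 of 6001 (18.8%) of all. Within the stress-induced list it stood in 3 of 6 separated members, against 22 of 38 members that were not separated. These are matches of letters and not shown to be binding sites.

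Genes of G1 and S phase were separated, all with SD lower, in 52.9% of the measured members, against 3.26% of all rows; in bulk RNA, fewer cells in a phase and less RNA per cell cannot be told apart. Of 17 measured members of the list of G1 and S phase cyclins and regulators, 9 were separated with SD lower and 0 with SD higher, and all 17 had a negative difference, with a median of -1.34 beside 0.02 over all rows. The same list ran the other way between the wild-type libraries, with a median of 0.85 for control minus ControlSYN3. RNR1 (YER070W, chrV:298950-301616), the large subunit of ribonucleotide reductase that makes deoxynucleotides, stood at 4.93, 9.17 and 4.22 in SD1, SD2 and SD3, against 75, 113 and 130.3 in RD1, RD5 and RD6. Its means were 6.11 ± 2.67 in SD and 106 ± 28.2 in RD (n = 3 each), a difference of -3.94, and the lowest RD library lay well above the highest SD library. The G1 cyclin CLN2 (YPL256C, chrXVI:64977-66614) had 21.9, 25.8 and 19.7 in SD and 116, 154 and 182 in RD, and its partner CLN1 24, 28.5 and 27.7 in SD and 116, 100.3 and 129.6 in RD. Control and ControlSYN3 were almost equal for CLN2, at 54.9 in control and 57.8 in ControlSYN3. TOS4 (YLR183C, chrXII:520543-522012), a target of SBF that acts in the checkpoint response, had 2.32, 2.61 and 1.8 in SD and 28.1, 37.6 and 40.7 in RD. PCL1, a cyclin of the kinase Pho85, averaged 24.7 ± 5.72 in SD and 125 ± 36.9 in RD, and the S phase cyclin CLB5 7.71 ± 0.989 in SD and 22.2 ± 2.48 in RD. WHI5, the repressor that holds back SBF in G1, averaged 10.6 ± 0.687 in SD and 28.3 ± 0.547 in RD. YOX1, a repressor of genes at the end of mitosis, averaged 22.2 ± 4.38 in SD and 77.2 ± 15.6 in RD, and NRM1, which shuts off MBF, 14.1 ± 0.951 in SD and 44.3 ± 11 in RD. All of these genes were separated, so under the rule their groups cannot overlap.

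Genes of DNA replication followed, with 7 of 41 measured members separated and lower in SD, 0 higher, and a median of -0.72 (0.63 between control and ControlSYN3). POL30 (YBR088C, chrII:424990-425766), the sliding clamp PCNA, had 7.74, 13.2 and 6.99 in SD and 80.3, 128 and 146 in RD, where every RD library was above every SD library by at least 2.52 on the log2 scale. RAD27, whose promoter is shown above, had 14, 18 and 15.6 in SD and 60.7, 74.5 and 74.5 in RD. POL1 averaged 4.96 ± 1.24 in SD and 21.7 ± 3.08 in RD. CDC45, a component of the replicative helicase, averaged 3.92 ± 0.791 in SD and 15.9 ± 3.03 in RD, and the single-strand binding subunit RFA1 17.8 ± 0.667 in SD and 48.9 ± 4.33 in RD. The catalytic subunit POL2 of DNA polymerase epsilon averaged 8.4 ± 1.44 in SD and 23 ± 1.79 in RD, and the fork protection gene TOF1 4.31 ± 0.18 in SD and 11 ± 0.832 in RD. CDC21 had 6.52, 9.41 and 5.53 in SD and 66, 88.5 and 98.2 in RD. All 7 separated genes of the replication list held ACGCGT in the 250 bases before the gene, against 11 of 34 members that were not separated. The same letters stood in 0 of 9 separated G1 and S phase genes and in 0 of 10 separated mitotic genes. Only exact matches within the 250 bases were searched, so these counts do not show that such genes lack sites for MBF. Of 10 histone genes 2 were separated, both lower in SD. They were the linker histone HHO1 with 35.8 ± 8.1 in SD and 253 ± 42 in RD, and HTB2, a gene for histone H2B, with 283 ± 47.2 in SD and 1322 ± 307 in RD. Among 23 DNA damage genes 3 (13%, beside 3.26% of all rows) were separated and lower in SD. They included RNR1 and the checkpoint kinase DUN1, which averaged 6.29 ± 0.549 in SD and 22.2 ± 3.85 in RD.

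Mitotic genes showed the same direction. Of 26 measured members 10 were separated and lower in SD and 0 higher, with a median of -1.21 (0.16 between the wild-type libraries). The mitotic cyclin CLB2 (YPR119W, chrXVI:771653-773128) had 9.73, 8.53 and 9.89 in SD and 47.6, 37 and 52.1 in RD, and CLB1 had 19.4, 23.2 and 24.1 in SD and 129, 129.6 and 145 in RD. For CLB1 the wild-type libraries differed in the direction of the strains, at 15 in control and 48.1 in ControlSYN3. The forkhead factor FKH1 averaged 7.47 ± 0.664 in SD and 40.3 ± 4.19 in RD. NDD1, the activator that switches on the mitotic genes, averaged 34.1 ± 2.18 in SD and 88.7 ± 8.07 in RD, and SWI5, a factor that acts at mitotic exit, 14.7 ± 1.17 in SD and 66.3 ± 12.1 in RD. CDC5, the polo kinase, averaged 16.9 ± 2.3 in SD and 58.1 ± 13.9 in RD. The separase ESP1, which frees the sister chromatids, averaged 4.68 ± 0.207 in SD and 14.1 ± 1.51 in RD, and the mitotic exit phosphatase CDC14 23 ± 2.11 in SD and 60.9 ± 8.26 in RD. CDC20, an activator of the anaphase-promoting complex, did not separate, at 52.9 ± 5.89 in SD and 41.6 ± 15 in RD. RD1 was not the lowest RD library for CLB2, SWI5 or CDC5, unlike for RNR1 and POL30.

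Structural genes of division were gathered in lists drawn up after the values had been seen, so their counts describe and support nothing further. Of 32 tubulin, spindle pole and kinesin genes 12 were separated and lower in SD, of 17 cohesin and condensin genes 7, and of 16 septin and bud site genes 10; none of the members was separated with SD higher. Alpha-tubulin TUB1 had 39.2, 38.5 and 38.6 in SD and 227, 261 and 298 in RD, and beta-tubulin TUB2 averaged 49.5 ± 2.56 in SD and 299 ± 60.1 in RD. The cohesin subunit MCD1 had 4.79, 7.63 and 4.31 in SD and 42.3, 50.8 and 63.8 in RD, while the wild-type libraries went the other way at 79.8 in control and 14.5 in ControlSYN3. The condensin subunit BRN1 averaged 3.55 ± 0.394 in SD and 12 ± 1.51 in RD, the septin CDC3 56.2 ± 5.99 in SD and 182 ± 33.7 in RD, and HOF1, a protein of the bud neck, 7.22 ± 0.51 in SD and 35.9 ± 4.26 in RD. The division genes named here were all separated, so under the rule no SD library can reach the lowest RD library.

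**Figure D2:**
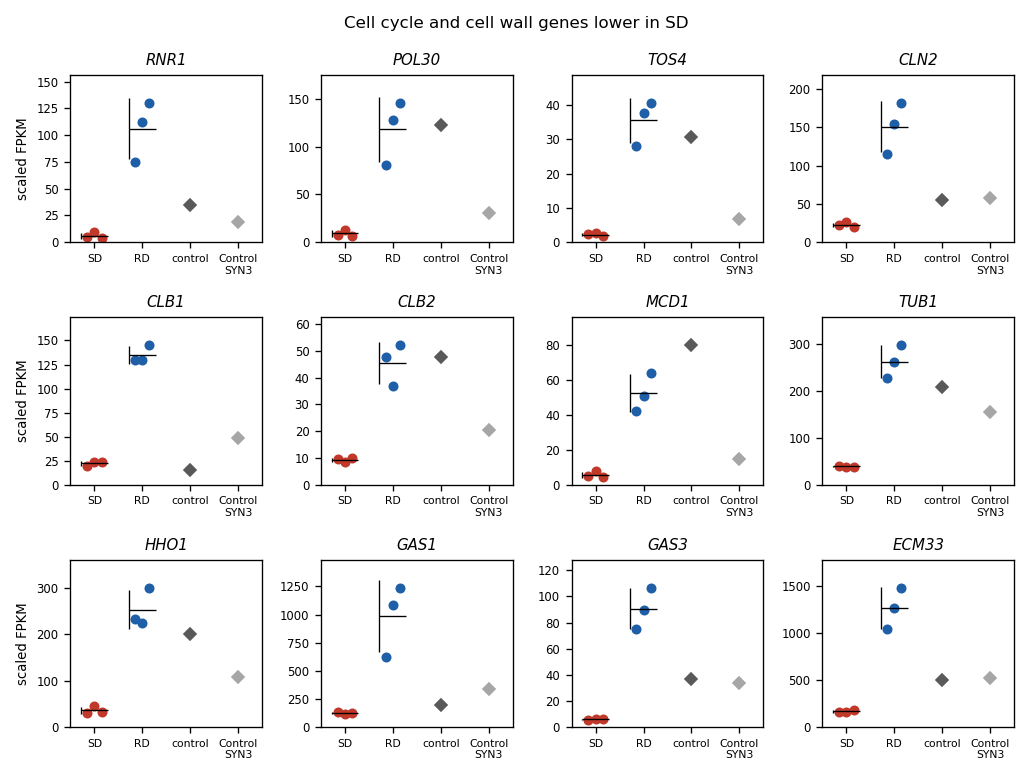
Scaled FPKM (vertical axes, from 0) of 12 genes lower in SD, in SD1, SD2 and SD3, then RD1, RD5 and RD6 (each group left to right), control and ControlSYN3. Points are libraries, horizontal bars means and vertical bars 1 SD of 3 libraries; the SD points lie below all RD points in every panel, for example 6.11 ± 2.67 in SD and 106 ± 28.2 in RD for RNR1.

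Cell wall genes held 12 separated members lower in SD and 1 higher, PIR3, out of 45. The median of the list was -0.62, but control was also below ControlSYN3 with a median of -0.78, and relative to the wild-type library of its own table the list reversed to 0.39. GAS3 (YMR215W, chrXIII:696796-698370), of the glucan-remodelling family, had 5.28, 6.38 and 6.03 in SD and 75.4, 89.3 and 107 in RD, with nearly equal wild-type libraries at 37 in control and 33.5 in ControlSYN3. GAS1, the main glucanosyltransferase of that family, had 132, 114 and 124 in SD and 627, 1085 and 1241 in RD. The soluble wall protein gene SCW4 averaged 108 ± 5.68 in SD and 839 ± 117 in RD, and CIS3, a wall mannoprotein gene, 242 ± 36.7 in SD and 1435 ± 329.7 in RD. UTR2, which joins chitin to glucan, averaged 10.7 ± 1.31 in SD and 148 ± 95.7 in RD, and here RD1 was far below RD5 and RD6 with 43.8, 168 and 232 in RD. The septum chitin synthase CHS2 averaged 11.8 ± 1.37 in SD and 44.9 ± 13.5 in RD. The mannoprotein gene CWP2, among the most abundant of the list, averaged 3079 ± 65.1 in SD and 10940 ± 2211 in RD. PIR3, a wall protein gene used in late mitosis and early G1, averaged 2049 ± 391 in SD and 401 ± 294 in RD, and the wild-type libraries held 78.1 in control and 564 in ControlSYN3.

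Wall mannoproteins pass through the ER, where mannose is attached. Of 27 mannosylation and GDP-mannose genes, a list also drawn up after the values were seen, 9 were separated, all lower in SD. PMI40, which feeds mannose into the pathway, had 29.6, 33.3 and 27.1 in SD and 161, 258 and 292 in RD. The O-mannosyltransferase PMT2 averaged 32.8 ± 1.62 in SD and 170.1 ± 40.6 in RD, with 61.5 in control and 65.5 in ControlSYN3. PMT4, another member of that family, averaged 19.1 ± 0.129 in SD and 92 ± 25.6 in RD, with 33.2 in control and 32.3 in ControlSYN3. Of 30 genes of ER folding, translocation and glycosylation 4 (13.3%, beside 3.26% of all rows) were separated and lower in SD. They were ALG5, the translocon pore SEC61, the oligosaccharyltransferase STT3 and the chaperone KAR2. KAR2 had 101 ± 20.3 in SD and 267 ± 28 in RD. Phospholipid genes had a median of -0.84 (-0.22 between the wild-type libraries). Of 23 members 6 (26.1%, beside 3.26% of all rows) were separated, all lower in SD. Among them the inositol transporter ITR1 averaged 70.9 ± 8.67 in SD and 369 ± 131 in RD. The choline transporter HNM1 averaged 22.8 ± 2.47 in SD and 95.5 ± 35.6 in RD, and the phosphatidylserine synthase CHO1 63.3 ± 6.24 in SD and 200.2 ± 55.2 in RD.

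Glycolytic genes had a median of -1.10, with 3 of 19 members separated, and the wild-type libraries had nearly the same median, -1.05. Without RD1, 10 of 19 were separated and lower in SD, beside 7.29% of all rows. Enolase ENO2 (YHR174W, chrVIII:451327-452640) had 326, 384 and 354 in SD and 1995, 4684 and 5179 in RD, and glyceraldehyde-3-phosphate dehydrogenase TDH2 averaged 316 ± 40.2 in SD and 3031 ± 1714 in RD. Pyruvate decarboxylase PDC1, the entry to ethanol, averaged 2019 ± 221 in SD and 7644 ± 1822 in RD, with 1214 in control and 3195 in ControlSYN3. ENO2 is 94.9% identical to ENO1 and TDH2 95.8% to TDH3, and the labels do not say how reads were divided between such copies. PHO3 (YBR092C, chrII:427698-429101), an acid phosphatase repressed by thiamine, had 57.2, 65.8 and 39.5 in SD and 706, 739 and 799.9 in RD, with 73.7 in control and 188 in ControlSYN3. IMD2, an inosine monophosphate dehydrogenase of guanine nucleotide synthesis, averaged 4.08 ± 0.76 in SD and 53.2 ± 17.4 in RD.

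For ribosomal protein genes the count changed with RD1. Only 2 of 136 cytosolic members (1.47%, beside 3.26% of all rows) were separated, RPL18B and RPS9A, both lower in SD. Without RD1, 73 were separated and lower in SD, beside 7.29% of all rows. The median level of the list was 357, 622.5 and 369 in SD1, SD2 and SD3, against 380.5 in RD1 and 1227 and 1471 in RD5 and RD6. Its median difference of -1.10 was opposite to that between the wild-type libraries, 1.60. Ribosome biogenesis factors had 0 of 60 separated and a median of 0.08, while control was above ControlSYN3 with a median of 1.196 and by at least 2-fold in 34 of 60. Relative to the wild-type library of its own table their median was -1.19. In SD against control 41 of 60 fell and 2 rose by limma on FPKM as deposited. Over all genes 31.4% fell and 10.4% rose there, with a median of -0.37. Against GD the median of the list was -0.61. The proteasome had 0 of 33 separated with a median of 0.09. These counts of 0 are to be read beside 1.31% of all rows higher in SD and 3.26% lower.

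Genes higher in SD included 6 of 44 members (13.6%, beside 1.31% of all rows) of the list induced in the environmental stress response, with 0 lower. The median of the list was 0.82, against -1.17 between control and ControlSYN3, and 14 members were separated without RD1. SPG4 (YMR107W, chrXIII:483014-483361), a gene needed for survival at high temperature in stationary phase, had 2035, 1653 and 2455 in SD and 256, 33.5 and 15.9 in RD. SPG1 (YGR236C, chrVII:962530-962817), of the same kind, had 114, 159 and 211 in SD and 30.1, 13.6 and 4.29 in RD. The stress gene DDR2 had 7517, 9492 and 10010 in SD and 3439, 1246 and 1333 in RD. MOH1, a gene needed to survive stationary phase, averaged 292 ± 13.5 in SD and 58.3 ± 31.1 in RD, and the ATP synthase regulator STF2 2783 ± 268 in SD and 996 ± 131 in RD. PHM8, a nucleotide phosphatase, averaged 639 ± 23.9 in SD and 178 ± 39.1 in RD, with 101 in control and 257 in ControlSYN3. The heat shock gene HSP26 did not separate, with 5382, 10030 and 8812 in SD and 5311, 2234 and 1337 in RD, where RD1 was at the level of SD1; HSP12 averaged 8462 ± 2149 in SD and 5196 ± 833 in RD and did not separate. RD1 was the highest RD library for SPG4, SPG1, DDR2 and MOH1.

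SPS100 (YHR139C, chrVIII:378219-379199), a spore wall gene, had 275, 236 and 617 in SD and 35.9, 15.5 and 11.1 in RD, and it overlaps the antisense transcript SUT169 over 946 of 981 bases, from which it cannot be told apart without strand. OYE3 (YPL171C, chrXVI:226169-227371), an NADPH dehydrogenase, had 142, 245 and 157 in SD and 22.9, 6.75 and 5.56 in RD. The wild-type libraries were low for both, at 10.8 in control and 21.3 in ControlSYN3 for SPS100 and 24.8 in control and 33.5 in ControlSYN3 for OYE3. The mitochondrial carnitine acetyltransferase YAT1 averaged 135 ± 33.1 in SD and 20.4 ± 12.8 in RD, and acetyl-CoA synthetase ACS1, used on poor carbon, 69.2 ± 7.67 in SD and 18.2 ± 7.19 in RD. YAT1 was the 1 separated member of 21 fatty acid oxidation genes (4.76%, beside 1.31% of all rows). ACS1 was the 1 of 27 genes of the tricarboxylic acid and glyoxylate list (3.7%), and OYE3 the 1 of 26 oxidative stress genes (3.85%). Of 35 respiratory chain and ATP synthase genes 3 (8.57%, beside 1.31% of all rows) were separated, all higher in SD. They were the cytochrome bc1 subunit QCR10 and the cytochrome oxidase subunits COX7 and COX12. QCR10 averaged 1665 ± 117 in SD and 702 ± 24.5 in RD, and its groups were tight. COX7 averaged 834 ± 41.2 in SD and 330.1 ± 36.5 in RD and COX12 721 ± 56.4 in SD and 304 ± 15.4 in RD.

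Sulfur genes had a median of 1.18, while the wild-type libraries had a median of -0.71. Of 32 members 3 (9.38%, beside 1.31% of all rows) were separated and higher in SD and 0 lower. Without RD1, 14 of 32 were separated and higher in SD, beside 7.24% of all rows. MET14 (YKL001C, chrXI:438777-439385), the kinase of sulfate assimilation, had 258, 475 and 449.5 in SD and 64.8, 66.8 and 69.6 in RD, and the wild-type libraries differed in the direction of the strains, at 105 in control and 47.7 in ControlSYN3. The siroheme enzyme MET8 averaged 86.6 ± 15.1 in SD and 25.7 ± 3.22 in RD and the sulfate permease SUL1 57.6 ± 4.29 in SD and 21.7 ± 2.23 in RD. MET17, the sulfhydrylase, averaged 1094 ± 271 in SD and 381 ± 196 in RD and did not reach the 2-fold gap. Arginine and branched-chain synthesis genes had medians of 0.87 and 0.76 with 0 of 17 and 0 of 10 members separated, and the wild-type libraries were -2.74 and -3.05 apart on these lists. With 1.31% of all rows separated higher in SD, 0 in lists of this size says little. Without RD1, 9 of 17 arginine and 2 of 10 branched-chain genes were separated, all higher in SD, beside 7.24% of all rows. The 0 for arginine genes therefore depends on RD1.

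Outside these groups, RME1, a repressor of meiosis that also activates CLN2, had 396, 396 and 403 in SD and 182, 169.8 and 159 in RD, with 36.9 in control and 223 in ControlSYN3. It was therefore higher in SD while CLN2 was lower. FRE7, a reductase of the copper regulon, averaged 42.4 ± 9.13 in SD and 7.77 ± 1.23 in RD, with 23.3 in control and 5.41 in ControlSYN3, a difference in the direction of the strains. BAP2, a permease of branched-chain amino acids, averaged 768 ± 33.5 in SD and 249 ± 60.6 in RD, while the wild-type libraries stood far apart at 82.1 in control and 862 in ControlSYN3. The small open reading frame YMR175W-A had 96.4, 395 and 192 in SD and 47.7, 7.42 and 5.42 in RD, and it passed the 2-fold rule by the smallest margin of the rows higher in SD, with 25.6 in control and 11.8 in ControlSYN3. Among rows lower in SD were the late ergosterol enzymes ERG4 and ERG6, 2 of 26 in their list (7.69%, beside 3.26% of all rows). ERG4 had 56 ± 8.97 in SD and 198 ± 14.6 in RD. ERG6 had 75.1 ± 6.23 in SD and 264 ± 47.7 in RD. For ERG4 the wild-type libraries differed in the direction of the strains, at 57.9 in control and 134 in ControlSYN3. The alcohol dehydrogenase ADH4, of the zinc regulon, averaged 87.8 ± 35.7 in SD and 423 ± 121 in RD, and the translation elongation factor gene TEF4 152 ± 18.1 in SD and 726 ± 339 in RD. No member was separated among 19 trehalose and glycogen genes (median -0.05), 18 hexose transporter genes (0.32), 25 chaperone genes (-0.11), 30 iron regulon genes (0.01), 25 autophagy genes (0.59) or 66 mitochondrial ribosomal proteins (-0.29). Only 1.31% of all rows were separated with SD higher and 3.26% with SD lower, so 0 in lists of this size says little about them. Without RD1, 5 of 25 autophagy genes were separated, all higher in SD, beside 7.24% of all rows. In the other lists named here at most 3 members were then separated in either direction.

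**Figure D3:**
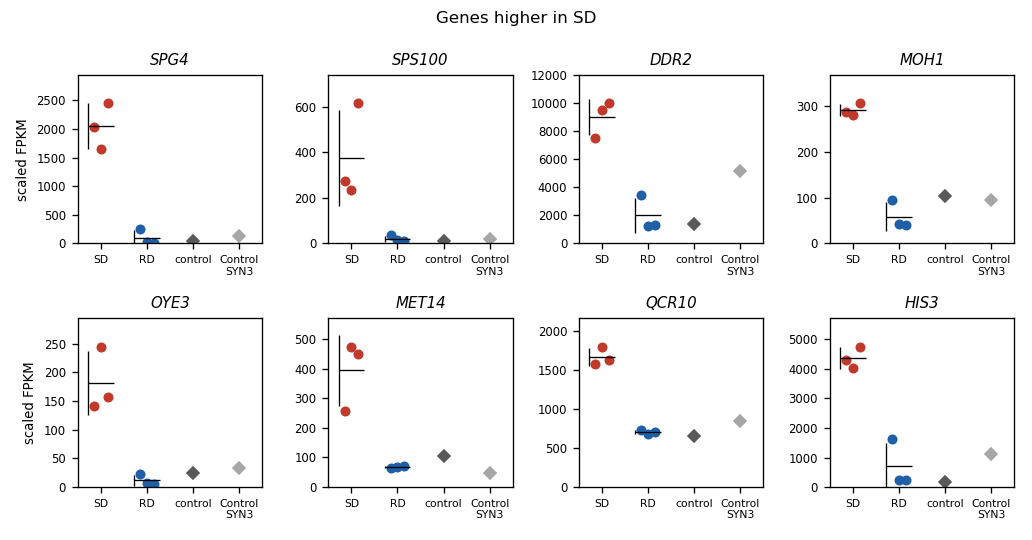
Scaled FPKM (vertical axes, from 0) of 8 genes higher in SD, in SD1, SD2 and SD3, then RD1, RD5 and RD6 (each group left to right), control and ControlSYN3. Points are libraries, horizontal bars means and vertical bars 1 SD of 3 libraries, drawn no lower than 0; all SD points lie above all RD points, and RD1 is the highest RD point for SPG4, SPS100, DDR2, MOH1, OYE3, QCR10 and HIS3.

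Of 7 marker genes used in yeast strain building 2 were separated, HIS3 higher and URA3 lower in SD. HIS3 (YOR202W, chrXV:721946-722608), of histidine synthesis, had 4300, 4018 and 4760 in SD and 1633, 251 and 234 in RD, with 155 in control and 1103 in ControlSYN3. URA3 (YEL021W, chrV:116167-116970), of uracil synthesis, had 93.4, 98.3 and 113 in SD and 2271, 572 and 593 in RD, with 958 in control and 373 in ControlSYN3. The labels do not say which markers the strains carry. ADE2, TRP1, CAN1, LYP1 and MET17 were not separated.

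The 13 essential genes of chromosome III lay on both sides of RD in the SD strains, 9 with a positive and 4 with a negative difference. RRP43 (YCR035C, chrIII:191834-193018), a core exosome subunit, was the 1 gene separated, with 374, 366 and 389 in SD and 77.9, 137 and 134 in RD. Control held 43.1 and ControlSYN3 is listed at 0 for it, so that relative to the wild types its difference reversed to -3.74. That value rests on the listed 0 and on the 1 FPKM added before log2. For an essential gene a level of 0 is doubtful, so the reversal is not read as a change of level. The median of the list was 0.19, and -0.36 without RD1. RD1 was the lowest RD library in all 13 genes: the ribosome assembly gene SPB1, for example, had 83.9, 81.8 and 82 in SD and 34, 107 and 105 in RD. PBN1, of GPI-anchor synthesis, had 327, 332 and 395 in SD and 182, 199.8 and 224 in RD, and CTR86 64.1 ± 7.74 in SD and 34.9 ± 7.95 in RD, without overlap but short of 2-fold. CDC39, the scaffold of the CCR4-NOT complex, went the other way at 28.4 ± 1.2 in SD and 60.6 ± 11.5 in RD, as did phosphoglycerate kinase PGK1 at 3047 ± 484 in SD and 7388 ± 3166 in RD. The labels do not say how reads of recoded and wild-type copies were divided.

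**Figure D4:**
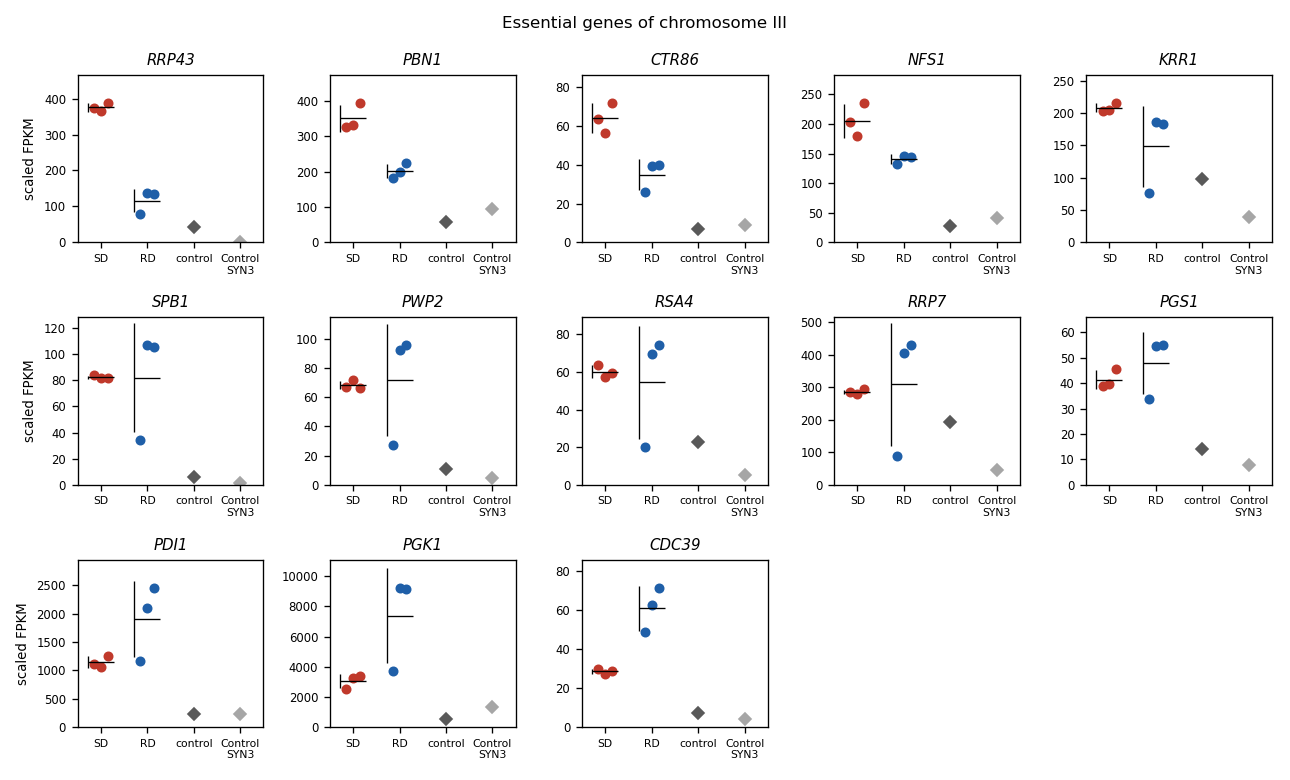
Scaled FPKM (vertical axes, from 0) of the 13 essential genes of chromosome III in SD1, SD2 and SD3, then RD1, RD5 and RD6 (each group left to right), control and ControlSYN3. Points are libraries, horizontal bars means and vertical bars 1 SD of 3 libraries; both strain groups lie above both wild-type libraries in all panels except RRP7, KRR1 and RSA4, where RD1 falls below control.

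Rows with near copies or overlaps were among the largest differences and are uncertain. The Ty1 retrotransposon row YER160C had 91.4, 63.3 and 78.6 in SD and 0.0101, 0 and 0.0217 in RD, and the row YLR035C-A, 99.7% identical to it over 3468 bases, had 0.347, 0 and 0.337 in SD and 93.2, 32.3 and 55.5 in RD. Each row was high where the other was at or close to 0. Both also have many other copies at least 90% identical, among them the separated rows YAR009C, YDR261C-D and YDR365W-B. Reads may therefore have been divided among more rows than this pair. YER190C-B, within the helicase gene YRF1-2, was listed at 0 in all SD libraries and had 42.4, 59.3 and 104 in RD, with 0 in control and 47.8 in ControlSYN3. VAM10 lies wholly within VPS5 on the opposite strand and had 13.6, 9.16 and 11 in SD and 0, 0.309 and 0.0109 in RD, while VPS5 averaged 48.4 ± 3.05 in SD and 51.8 ± 0.848 in RD. YLR154C-H, YLR156C-A, YLR157C-C and YLR159C-A are identical in sequence, lie opposite 5S ribosomal RNA genes, and hold 1 set of values, 16.6, 50.8 and 49.5 in SD and 476, 759.5 and 521 in RD; they count as 1 observation. In all, 12 of 256 separated rows matched to the reference overlap another gene and 15 have a copy at least 90% identical over at least 50% of their length.

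Within its own table each strain group was tested against its wild-type library, with limma on log2(FPKM + 1) as deposited. In SD against control 616 of 5899 genes (10.4%) rose and 1852 (31.4%) fell, at an adjusted p of 0.05, and the median over all genes was -0.37, so falls are to be read against that shift. With median-of-ratios scaling 1103 rose and 1032 fell. RNR1 fell by 2.76 on the log2 scale (SE 0.61, adjusted p = 0.0107), POL30 fell by 3.99 (SE 0.81, adjusted p = 0.008), CLN2 fell by 1.60 (SE 0.24, adjusted p = 0.00266) and CLB2 fell by 2.58 (SE 0.33, adjusted p = 0.00187). SPG4 rose by 5.15 (SE 1.23, adjusted p = 0.0141), SPS100 by 4.55 (SE 1.06, adjusted p = 0.0128) and HIS3 by 4.46 (SE 0.69, adjusted p = 0.00287). All of these share the single control library, which is assumed to vary like the strains.

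By list, 14 of 17 G1 and S phase genes, 34 of 41 replication genes, 20 of 26 mitotic genes and 7 of 10 histone genes fell in SD against control, and none rose. Of 44 stress-induced genes 27 rose and 1 fell. Over all genes 31.4% fell and 10.4% rose. Of the 13 essential genes of chromosome III 12 rose in SD against control, with a median of 2.13, and RRP7 alone did not pass at 0.21 (SE 0.20, adjusted p = 0.407). In RD against ControlSYN3 the same 13 genes had a median of 2.39. No gene passed there by limma at an adjusted p of 0.05, out of 5895 tested (0.0%), with 304 higher and 367 lower in RD at an unadjusted p under 0.05. Without RD1, 1346 genes were called higher and 1952 lower in RD, and on simulated data the test with RD1 recovered 0% of 4-fold changes, so its 0 calls carry no information on RD.

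Set against GD, which shares the table with SD, 301 of 5882 rows (5.12%) were separated with SD higher and 111 (1.89%) with SD lower; the SD libraries are the same as in the comparison with RD. Of 17 G1 and S phase genes 6 were lower in SD than in GD and 0 higher, with a median of -1.37, and of 26 mitotic genes 8 were lower and 0 higher, with a median of -0.95. Stress-induced genes were separated in 33 of 44 cases, all higher in SD, with a median of 2.43. Of the 13 essential genes of chromosome III 11 were higher in SD than in GD and 0 lower, with a median of 2.25, beside 0.19 between SD and RD. Cytosolic ribosomal protein genes had 0 of 136 separated and a median of -1.45.

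**Figure D5:**
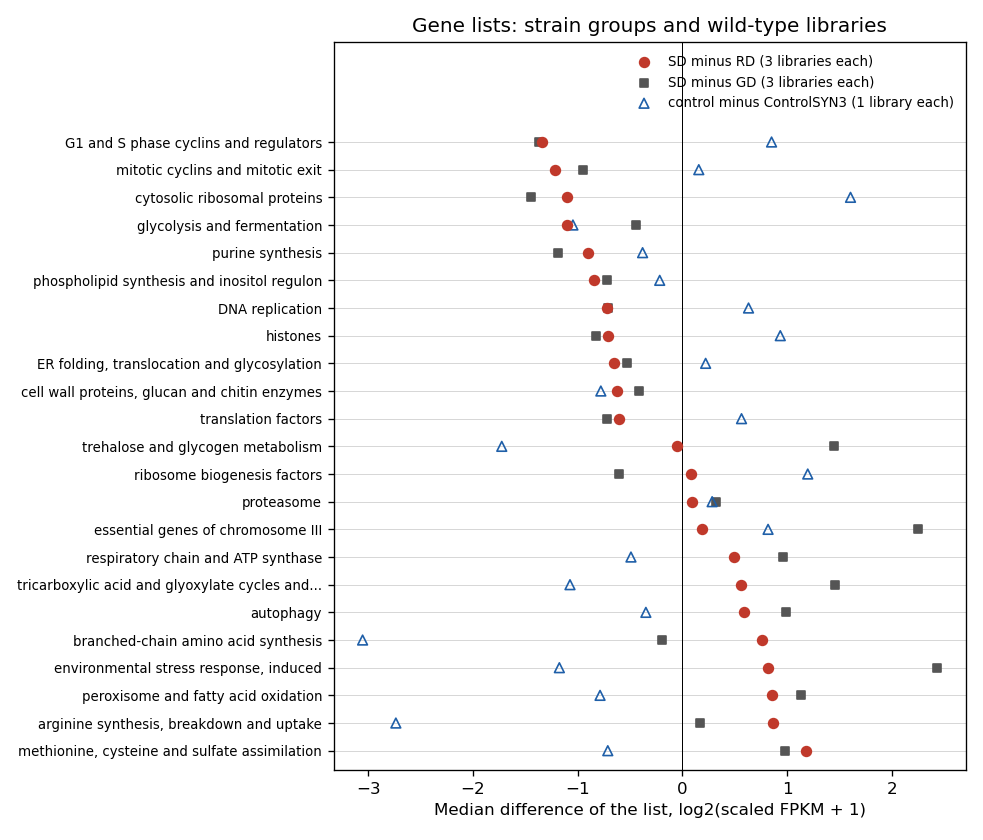
Median difference of each gene list on log2(scaled FPKM + 1) (horizontal axis) for SD minus RD and SD minus GD (3 libraries each) and for control minus ControlSYN3 (1 library each). G1 and S phase genes lie at -1.34, -1.37 and 0.85, stress-induced genes at 0.82, 2.43 and -1.17, and essential genes of chromosome III at 0.19, 2.25 and 0.82.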

How the data were processed

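Polyadenylated RNA of 11 yeast libraries was sequenced. The authors deposited FPKM, split over 2 tables by library. BWA, Bowtie2, RSEM and build R64 appear in the submitters' processing notes, while strandedness and the handling of recoded copies are not given in the sources used here. Columns MD1, MD5 and MD6 were taken as RD1, RD5 and RD6 by their numbers, an inference. Of 5921 rows found in both, 5760 matched the R64 RefSeq annotation by gene number, and 30 fell below a mean of 1 FPKM, which left 5891.

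FPKM of SD and RD were scaled by median-of-ratios over the 6 columns, and other libraries by their ratios to the same row means. The separation rule is a description, not a test. Within tables limma 3.58.1 (R 4.3.3) was fitted to log2(FPKM + 1) with trend and robust options and Benjamini-Hochberg adjustment at 0.05; this scale understates the change of low genes. The plan foresaw count tests only had the tables held counts. Other steps used Python 3.11.15, pandas 2.3.3 and blastn 2.17.0. On simulated data of 5888 genes the separation rule recovered 99% of 8-fold and 89% of 4-fold changes. For SD against control limma recovered 79% of 4-fold and 22% of 2-fold changes. The changes were put into some of the genes, none of them low, so recovery was not measured for low genes. Noise was drawn separately for each library and gene, so the shift of RD1 in many rows at the same time was not simulated.

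Depth was estimated from the low values: with 31 to 37 bases taken off the gene length they fell within 0.027 to 0.09 of whole fragments on average, against 0.159 to 0.201 with other offsets, a grid widened after narrower ones had not resolved.

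Genes, lists and comparisons were chosen with earlier results of these data known. The genes named are the 10 largest separated differences in each direction, up to 3 separated members of each list, all marker, mating-type and chromosome III genes, and the 5 largest in each direction separated 4-fold with wild types within 1.5-fold. The 10 largest were taken among rows with a reference symbol and a mean of at least 10 FPKM in the higher group, and the 5 largest among rows with a symbol. Other genes named were chosen after their values were seen. Alternatives covered scaling, pseudocount, minimum level, gap, matched rows, the wild-type library of each table and leaving out each library.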

Additional observations from a re-analysis of the deposited data

Results flagged for a closer look

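For 14 of the 101 genes named by rule, every SD library lay at least 2-fold to one side of control and every RD library at least 2-fold to the other side of ControlSYN3; the 2-fold minimum was added to the rule for brevity, and the difference was not tested. The value given is the log2 difference of SD against control minus that of RD against ControlSYN3. SD was below control and RD above ControlSYN3 for TOS4 (-5.51), POL30 (-5.50), IMD2 (-5.05), RNR1 (-4.80), GAS3 (-3.86), HHO1 (-3.70), RAD27 (-3.65), DUN1 (-3.35) and HTB2 (-2.86). Of the other 46 genes given in the text, most of them chosen after their values were seen, 5 did the same: CDC21 (-5.85), MCD1 (-5.41), PCL1 (-5.09), PMI40 (-4.23) and CIS3 (-3.34). The remaining separated rows were not looked at in this way. The 4 identical rows YLR154C-H, YLR156C-A, YLR157C-C and YLR159C-A shared a value of -3.80. The opposite direction was seen for BAP2, a permease of branched-chain amino acids, with 5.02: its levels were 801.4, 734.5 and 767.6 in SD and 82.1 in control, against 317.2, 227.6 and 201.7 in RD and 862.3 in ControlSYN3. Each wild type is a single library, and these values carry the differences between them.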

How the results depend on the processing

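The count of rows higher in SD than in RD (77) was 116 with FPKM as deposited and ran between 79 and 426 with 1 library left out, the highest without RD1 and 116 without SD2; the count lower in SD (192) ran between 199 and 429, the highest without RD1. Without a minimum gap the counts were 1604 and 1577 (27.2% and 26.8% of rows), with a 4-fold gap 9 and 33, relative to the wild-type libraries 733 and 675, and with GD in place of RD, added after seeing the data, 301 and 111. Rows that differ the same way between the wild types (8 higher, 14 lower) became 28 and 6 with FPKM as deposited, 17 higher with equal totals, 141 and 148 without a minimum gap, 0 and 3 with a 4-fold gap, 0 and 1 relative to the wild types, 2 and 3 with a 4-fold wild-type minimum, and between 8 and 23 higher and 15 and 45 lower with 1 library left out.

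Relative to the wild-type library of each table, 9 of 49 list medians turned: essential genes of chromosome III (-0.99), zinc (0.0664) and cell wall genes (0.39), which hold separated members, and ribosome biogenesis (-1.19), trehalose and glycogen (1.46), alpha-specific (0.70), iron (-0.40), chaperone (0.23) and proteasome genes (-0.24). RRP43 reversed to -3.74, a value that rests on the doubtful 0 listed for it in ControlSYN3. The medians became -2.68 for cytosolic ribosomal proteins, -0.30 for glycolysis, 2.14 for stress-induced, -1.34 for replication and -2.51 for G1 and S phase genes. The chromosome III median ran between -0.36 without RD1 and 0.55 without RD6. With 1 library left out, medians near 0 changed sign: the phosphate one ran between -0.081 (without SD2) and 0.3079, the hypoxic one between -0.0095 (without SD3) and 0.1714, and the haploid-specific one between -0.0031 (without RD1) and 0.5038. The lists counted here were picked after their values were seen.

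In SD against control (616 up, 1852 down) limma called 1103 and 1032 with median-of-ratios scaling, 1050 up when only SD and control were fitted, and between 390 (without SD3) and 897 up and 1262 and 2360 down with 1 SD or GD library left out, GD being part of the fit. In RD against ControlSYN3 (0 and 0) it called between 0 and 1346 up and 0 and 1952 down, the highest without RD1. Where no cause is given above, the cause was not tested. No paired analysis was possible because SD and RD share only the number 1 and each wild type is 1 library. Over the 101 named genes, 1425 of the recomputed differences kept their direction within the spread between libraries, 88 moved more and 1 reversed. DESeq2 was not run, since the tables hold no counts. The precision is limited by 3 libraries a group, by single wild types and by tables that were processed separately.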
